A study of Homo sapiens with 6 samples.

Results

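The mir-181a hairpins are the precursors of the microRNA (miRNA) miR-181a that are encoded at 2 places in the human genome. They were chosen by name: every entry of the deposited table whose hairpin is hsa-mir-181a-1 or hsa-mir-181a-2 was taken, which gave 2 of the 147 hairpins listed. Both yield the identical miRNA from the 5′ arm of the hairpin, miR-181a-5p. From the 3′ arm (3p), mir-181a-1 yields miR-181a-3p and mir-181a-2 yields miR-181a-2-3p, and these 3p products are what the table follows. All samples were HCT116 cells, a human colorectal carcinoma line, in which the gene for DICER had been knocked out. They were transfected with a plasmid for DICER without its helicase domain (DICER-delHelicase, 3 samples) or for full-length DICER (DICER-WT, 3 samples), and small RNAs were sequenced 48 h later. Every value therefore comes from plasmid-borne DICER in 1 knockout line, and the sources used here do not state how much DICER each sample made.

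DICER is the RNase III enzyme that cuts the terminal loop off a precursor miRNA, leaving a duplex of a 5p and a 3p strand. Its cut on the 3p side fixes the first base of the 3p miRNA, and with it the seed, the stretch of bases 2 to 8 through which a miRNA pairs with target messages. A shifted cut gives a 3p miRNA with another seed. The helicase domain of DICER lies next to the loop of a bound precursor. miR-181a-5p is usually the more abundant strand and is best known from developing T cells, where it tunes the response of the T cell receptor, and the 3p strands are usually the minor products.

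The sequences are shown first because the loci differ in the loop and in the 3p arm but not in the 5p arm. The stretch from the first base of miR-181a-5p to the last base of the 3p miRNA was read from each deposited hairpin, with the 3p miRNA in capitals.
mir-181a-1: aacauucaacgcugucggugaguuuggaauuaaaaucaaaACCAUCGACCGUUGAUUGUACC
mir-181a-2: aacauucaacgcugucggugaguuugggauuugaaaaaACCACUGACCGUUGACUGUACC
The mature sequences, from the RefSeq tables on GRCh38.p14, are given with the seed in capitals.
miR-181a-5p: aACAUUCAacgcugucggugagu
miR-181a-3p: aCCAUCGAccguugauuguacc
miR-181a-2-3p: aCCACUGAccguugacuguacc
The 3p miRNAs are both 22 nt long and identical at 19 positions. Counted from 1 at the 5′ end and with the base of miR-181a-3p written first, they differ by U5C, C6U and U16C. U5C and C6U lie in the seed, so the 3p products of the loci have different seeds, whereas the seed of miR-181a-5p is shared. No other of the 116 listed miRNAs with a RefSeq sequence carried either 3p seed, nor did any other of the 2370 mature human miRNA names in that table. The longest run of bases that both 3p miRNAs share is 9 nt. The loci thus differ in the sequence of the product that was scored, which does not hold for copies that give an identical 3p miRNA.

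The hairpin mir-181a-1 (gene MIR181A1) lies on chromosome 1 from 198859044 to 198859153, minus strand, on GRCh38 in GENCODE. Its host is MIR181A1HG, a long non-coding RNA on the same strand, and no exon of the host overlaps it. The hairpin mir-181a-2 (MIR181A2) lies on chromosome 9 from 124692442 to 124692551, plus strand, in an intron of the antisense RNA MIR181A2HG. It also lies opposite an intron of NR6A1, a gene for an orphan nuclear receptor, on the other strand. Each has a miR-181b hairpin downstream, MIR181B1 after 61 bases and MIR181B2 after 1158 bases. The human miR-181 family has 6 hairpins: mir-181a-1, mir-181a-2, mir-181b-1, mir-181b-2, mir-181c and mir-181d. Of these, the 2 mir-181a hairpins were in the deposited table and the other 4 were not.

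Predicted folds of the precursors were alike up to the 3p start and differed in the loop. RNAfold paired the first base of either 3p miRNA with base 23 of the 5p arm, the last base of miR-181a-5p. The arms are separated by 17 nt in mir-181a-1 and by 15 nt in mir-181a-2. Of these, 14 and 11 are A or U. In mir-181a-1 the terminal loop had 7 nt and was closed by 2 base pairs, followed by 1 unpaired base on each side. In mir-181a-2 those pairs were absent, and a single terminal loop of 11 nt was predicted. The median terminal loop over the 147 hairpins had 7 nt (quartiles 4 and 9). A loop smaller than that of mir-181a-1 was predicted for 73 hairpins, and one smaller than that of mir-181a-2 for 120.

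**Figure D1:**
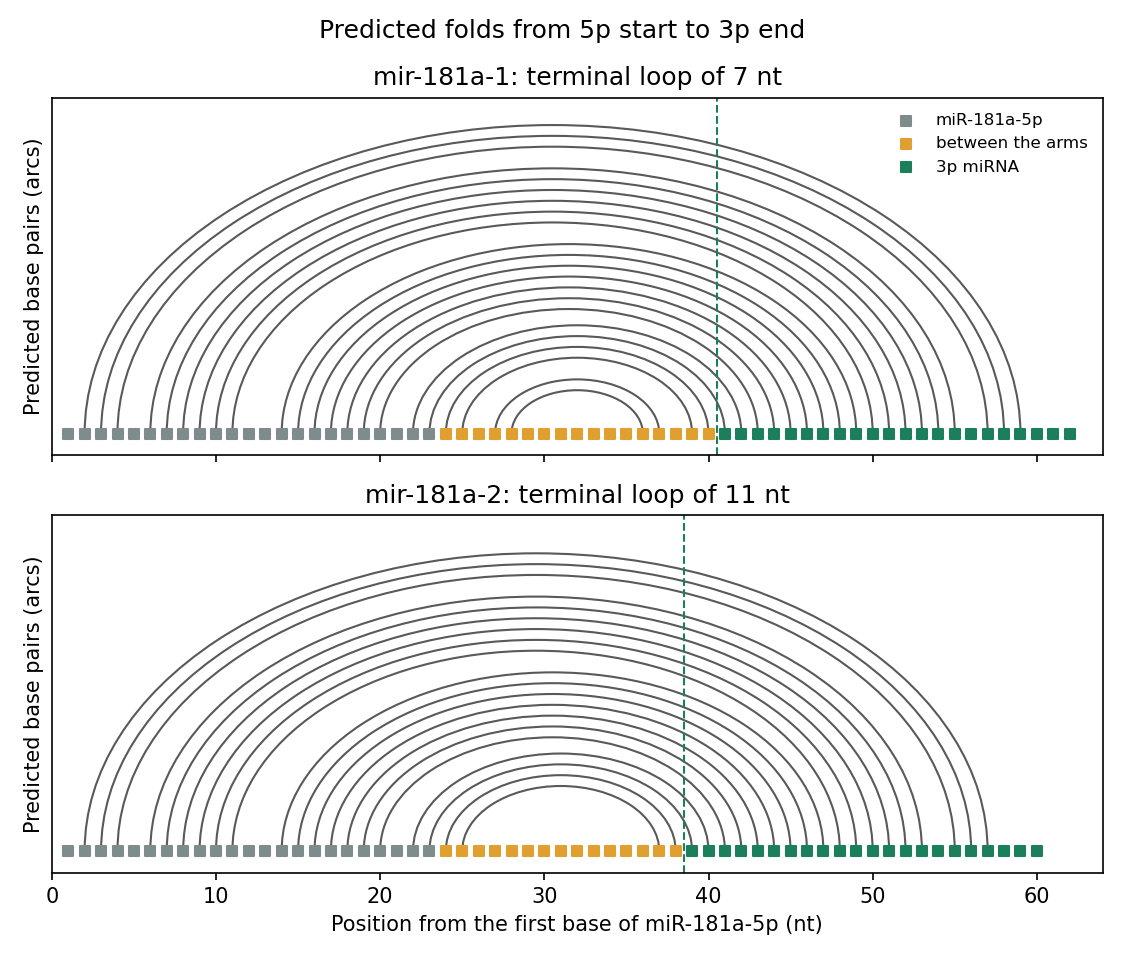
Predicted base pairs, drawn as arcs, along the stretch from the first base of miR-181a-5p to the last base of the 3p miRNA, for mir-181a-1 (upper) and mir-181a-2 (lower); squares are bases coloured by arm, and the dashed line marks the 3p start. The arcs match except at the top of the stem, where mir-181a-1 has 2 extra pairs and a loop of 7 nt and mir-181a-2 has a loop of 11 nt.

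In the main fold of both precursors, exactly 2 paired bases separate the 3p start from the nearest unpaired base on the loop side. That base is at position 38 in mir-181a-1, where it is the unpaired base below the small upper helix. It is at position 36 in mir-181a-2, where it is the last base of the terminal loop. In an alternative prediction, the centroid structure, mir-181a-1 had 1 paired base before the 3p start and mir-181a-2 kept 2. The authors' table carries a Yes or No class headed 2-nt, taken from the DICER-WT products, and both hairpins are among the 73 of 147 in the class Yes. The sources used here do not define the class. The run of paired bases was therefore counted for each hairpin with a RefSeq 3p sequence and a main 5′ end at offset 0 in the DICER-WT column. The run was 2 nt in 54 of 66 hairpins of class Yes (81.8%), 5 of them near-identical mir-941 copies, and in 3 of 63 of class No (4.76%). In class No a run of 3 nt was the most frequent, in 24 hairpins. By the main fold, both mir-181a hairpins thus sit in the most common arrangement of their class. Each had its main 5′ end with DICER-WT at offset 0. The class may itself have been set from the hairpin fold and the DICER-WT cut site. The match between class and run is therefore no independent result on structure.

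**Figure D2:**
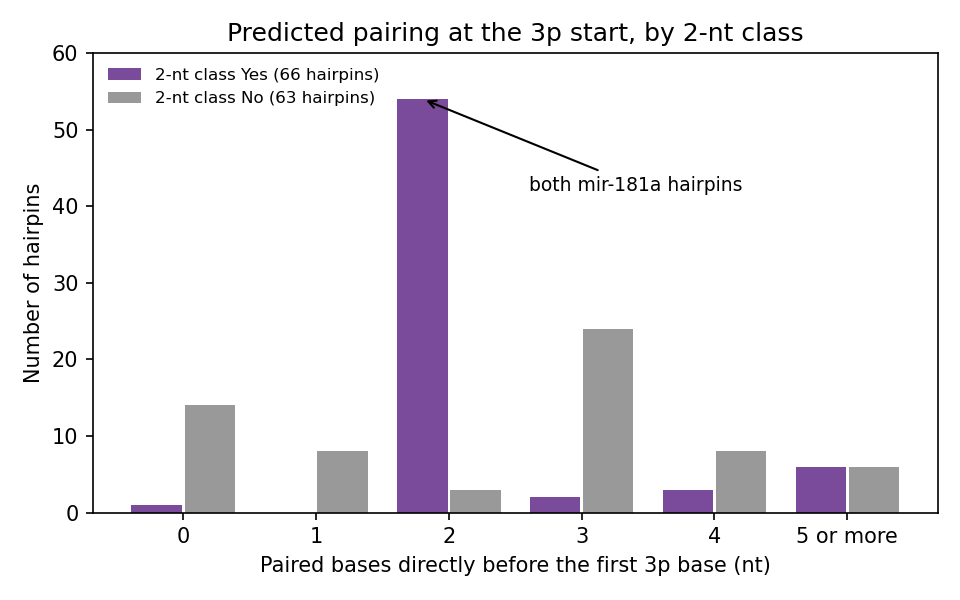
Number of hairpins (y axis) by the number of predicted paired bases directly before the first 3p base (x axis, nt), for the 2-nt classes Yes (66 hairpins) and No (63 hairpins). Both mir-181a hairpins are among the 54 hairpins of class Yes with 2 paired bases, against 3 hairpins of class No.

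The deposited hairpins, which extend beyond the precursors, differed in predicted energy. Each deposited sequence is 130 nt long and includes flanks. Before the 5p start and after the 3p end these have 33 and 35 nt in mir-181a-1, and 48 and 22 nt in mir-181a-2. The predicted minimum free energy was -37.1 kcal/mol for mir-181a-1 and -56.6 kcal/mol for mir-181a-2, against a median of -44.2 over all hairpins, whose median length is 103 nt. The G and C content was 42.3% and 50.8%. Between the 5p start and the 3p end the predicted energies were close, -21.8 for mir-181a-1 and -20.9 kcal/mol for mir-181a-2, so the difference lay in the flanks.

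Each hairpin has 1 deposited variation score per construct, a number headed global variation that the authors computed from the reads. The sources used here give no formula for it and do not say how the 3 samples of a group entered it. Neither a spread between samples nor a test between the constructs can be given, and the depth behind each score is unknown. For mir-181a-1 the score was 0.168 with DICER-delHelicase and 0.0914 with DICER-WT. For mir-181a-2 it was 0.106 with DICER-delHelicase and 0.00529 with DICER-WT. Both hairpins scored higher without the helicase domain, and the lowest of the 4 values by far was that of mir-181a-2 with DICER-WT.

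**Figure D3:**
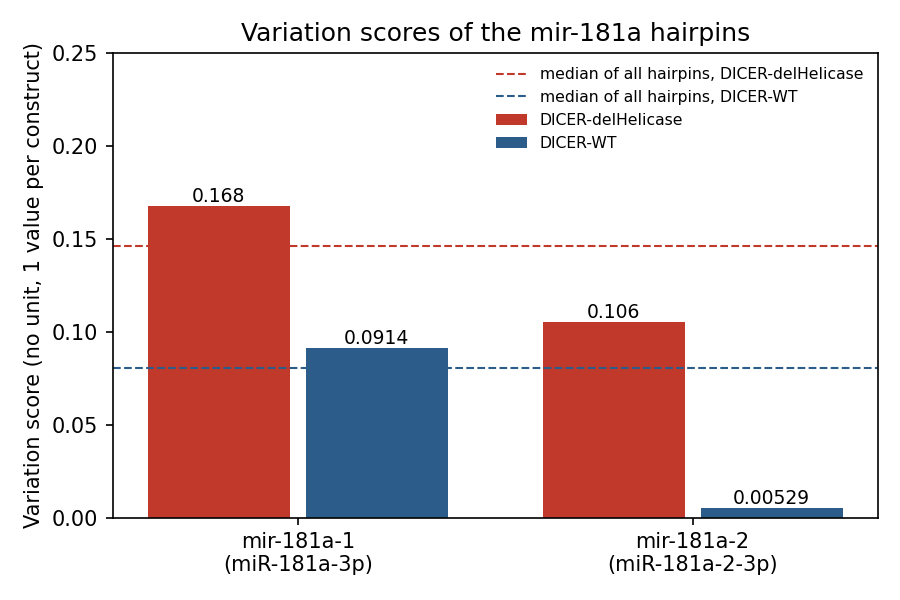
Variation score (y axis, no unit, 1 deposited value per bar and no replicate values) of mir-181a-1 and mir-181a-2 with DICER-delHelicase (left bar) and DICER-WT (right bar); dashed lines are medians over all 147 hairpins. The DICER-WT bar of mir-181a-2, at 0.00529, lies far under the median of 0.0804.

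A higher score with DICER-delHelicase was the rule in the table, found for 106 of 147 hairpins (72.1%), so its presence in 2 of 2 mir-181a hairpins does not set them apart. The difference was 0.0765 for mir-181a-1 and 0.1002 for mir-181a-2, a median of 0.0883, beside a median of 0.0261 over all hairpins. A rise of at least 0.05 was reached by both mir-181a hairpins and by 46.3% of all hairpins. A rise of at least 0.1 was reached by mir-181a-2, just above that limit, and by 37.4%. In order of size the differences stood at places 65 and 55 of 147, near the middle.

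As a ratio the loci parted. The DICER-delHelicase score was 1.84 times the DICER-WT score for mir-181a-1 and 19.9 times for mir-181a-2. With 0.01 added to each score to damp values near 0, the log2 ratio was 0.81 for mir-181a-1 and 2.92 for mir-181a-2, against a median of 0.58 over all hairpins. A log2 ratio of at least 1, a 2-fold rise, was reached by mir-181a-2 and by 37.4% of all hairpins. By this ratio mir-181a-2 stood at place 3, after mir-33b, from an intron of the sterol regulator gene SREBF1 (scores 0.363 with DICER-delHelicase and 0.00813 with DICER-WT) and let-7e, of the growth-restraining let-7 family (0.972 and 0.0409, in the same order), and mir-181a-1 stood at place 66. With 0.05 added in place of 0.01, the log2 ratio of mir-181a-2 was 1.49, at place 20, since its ratio rests on a DICER-WT score close to 0.

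**Figure D4:**
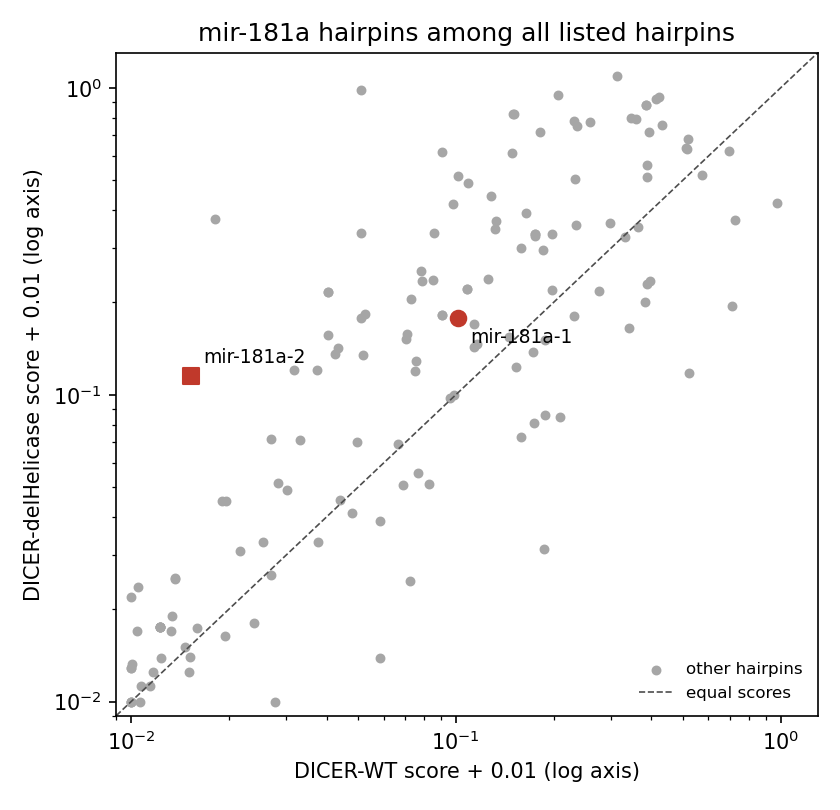
DICER-delHelicase score against DICER-WT score of the 147 hairpins, each with 0.01 added, on log axes; the dashed line marks equal scores and larger symbols mark the mir-181a hairpins. With 0.106 under DICER-delHelicase and 0.00529 under DICER-WT, mir-181a-2 lies above most hairpins of like DICER-WT score, while mir-181a-1 lies among them.

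The scores themselves placed the loci differently. With DICER-delHelicase, 78 hairpins scored lower than mir-181a-1 and 57 lower than mir-181a-2. With DICER-WT, 79 scored lower than mir-181a-1 and 26 lower than mir-181a-2. The mir-181a-1 hairpin was thus mid-table with either construct, and mir-181a-2 was low among the DICER-WT scores but nearer the middle of the DICER-delHelicase scores.

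Hairpins of like DICER-WT score, in ranges chosen after the values were seen, give the setting of each locus. A DICER-WT score under 0.01 was found for mir-181a-2 and for 31 other hairpins, whose median change was 0.00314. These 31 include 5 mir-941 copies with equal scores and copies of mir-24, mir-128, mir-548o and mir-19b, so they are not 31 independent values. The highest DICER-delHelicase score in this range was the 0.363 of mir-33b, the next the 0.106 of mir-181a-2, and then followed mir-99b with 0.0351 and mir-200a, of the epithelial miR-200 family, with 0.0351. Most hairpins with so low a DICER-WT score also had a low one with DICER-delHelicase, and mir-181a-2 did not. Around mir-181a-1, DICER-WT scores from 0.08 to 0.12 were found for 15 other hairpins, 5 of them near-copies of the miR-320 family. All 15 were higher with DICER-delHelicase, by a median of 0.112, beside the 0.0765 of mir-181a-1. The median was 0.0918 for the 5 miR-320 hairpins and 0.214 for the 10 others.

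Between the loci, mir-181a-2 scored lower than mir-181a-1 with either construct, by 0.0624 with DICER-delHelicase and by 0.0861 with DICER-WT. The score of mir-181a-1 was 1.59 times that of mir-181a-2 with DICER-delHelicase and 17.3 times with DICER-WT. The loci were thus closer to each other without the helicase domain, mainly as a ratio. The change of mir-181a-2 exceeded that of mir-181a-1 by 0.0237, and without replicate values this cannot be set against an error.

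The table holds 18 sets of numbered copies, and in 16 of them (36 hairpins) all copies have 1 listed miRNA, so that their reads can be shared. The median gap between the copies of such a set was 0.00145 with DICER-delHelicase and 0.000272 with DICER-WT. Of these 16, only let-7a had a wider gap than mir-181a, with 0.292 under DICER-delHelicase and 0.353 under DICER-WT. The widest of the other 15 was that of mir-29b, 0.0144 and 0.0197 in the same order. Where reads are shared, near-equal scores can follow from that alone. These sets therefore do not show whether the mir-181a gap is wide. The sole other set with different listed miRNAs was let-7f, the source of let-7f-1-3p and let-7f-2-3p. There let-7f-1 scored 0.124 with DICER-delHelicase and 0.0416 with DICER-WT, and let-7f-2 scored 0.327 with DICER-delHelicase and 0.0755 with DICER-WT. The gap between the let-7f copies was 0.203 with DICER-delHelicase and 0.0338 with DICER-WT, wider without the helicase domain where that of mir-181a was narrower. With only 2 such sets and 1 value per construct, this contrast was not tested.

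**Figure D5:**
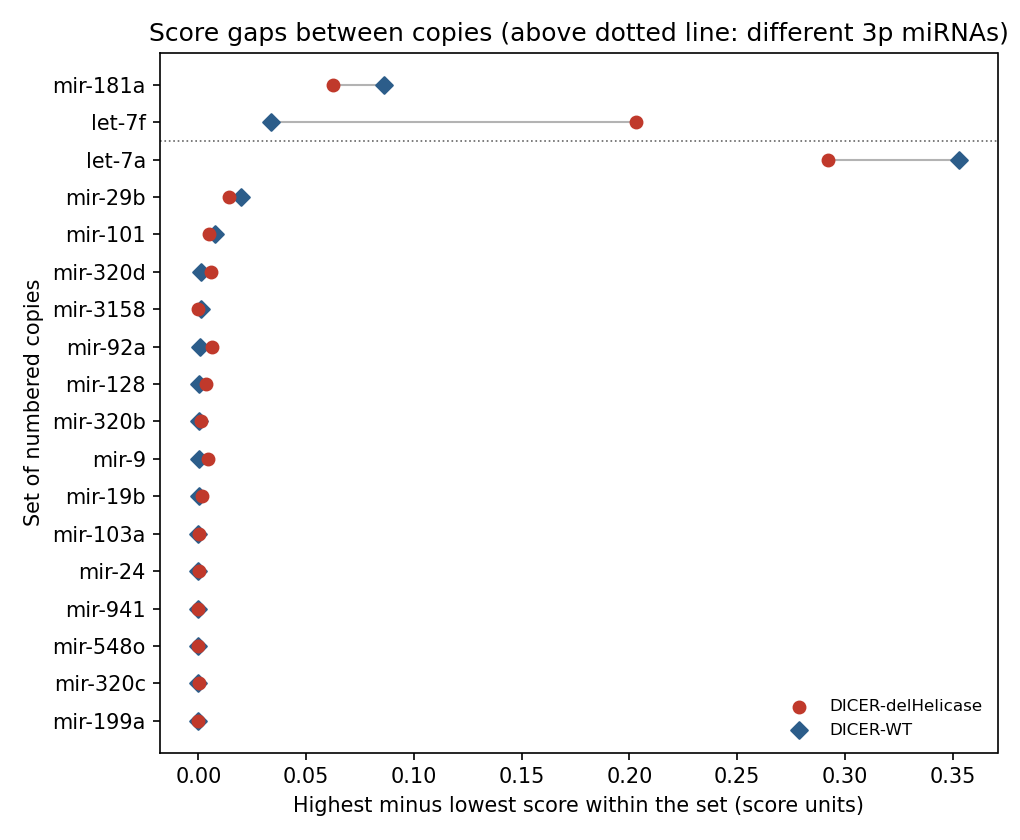
Highest minus lowest variation score (x axis, score units) within each of 18 sets of numbered hairpin copies, with DICER-delHelicase (circles) and DICER-WT (diamonds); sets above the dotted line have different listed 3p miRNAs. The gap of mir-181a is 0.0624 with DICER-delHelicase and 0.0861 with DICER-WT, and most sets with 1 listed miRNA lie near 0.

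The hairpins most like each locus were found by the distance between log2(score + 0.01) values over both constructs. The 5 nearest to mir-181a-1 were all relatives of mir-320a, whose precursor is known to be made without DROSHA: mir-320c-2, mir-320c-1, mir-320a, mir-320b-1 and mir-320b-2, at distances of 0.165 to 0.332. The closest, mir-320c-2, scored 0.172 with DICER-delHelicase and 0.0807 with DICER-WT. These hairpins are near-copies and do not count as independent neighbours. Of the 5, only mir-320c-1 is in the 2-nt class Yes.

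The neighbours of mir-181a-2 were farther away on this scale, at distances of 1.05 to 1.39. Its DICER-WT score of 0.00529 lies below the 0.01 added, so these distances depend on that setting. The neighbours were mir-615 (0.111 with DICER-delHelicase and 0.0217 with DICER-WT), mir-22 (0.0618 and 0.0171 in the same order), mir-222, mir-197 and mir-99b. The hairpin mir-222, whose miR-222-3p targets the cell cycle inhibitor p27, scored 0.110 with DICER-delHelicase and 0.0274 with DICER-WT. Its predicted terminal loop also had 11 nt, but those of mir-615, mir-22, mir-197 and mir-99b had 7, 9, 4 and 4 nt. Unlike mir-181a-2, mir-222, mir-197 and mir-99b are in the 2-nt class No, while mir-615 and mir-22 are in the class Yes. The loci thus had no nearest neighbour in common.

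Other hairpins shared the predicted loop size of each locus. A terminal loop of 7 nt, as in mir-181a-1, was predicted for 9 other hairpins, 8 of them higher with DICER-delHelicase, with a median change of 0.0891. A loop of 11 nt, as in mir-181a-2, was predicted for 7 other hairpins, 4 of them higher, with a median change of 0.0830. Over all 147 hairpins 72.1% were higher, with a median change of 0.0261. The median log2 ratio was 0.67 for the other hairpins with 7 nt and 0.29 for those with 11 nt, against 0.58 over all hairpins. Whether loop size goes with the change was not tested. Within the 2-nt class Yes the median change was 0.0115, and among its hairpins with a run of 2 paired bases and offset 0 it was 0.00969. Both medians lie below the changes of the mir-181a hairpins. In order of size within the class, though, those changes stood only at place 29 for mir-181a-1 and place 26 for mir-181a-2. In that class of 73 hairpins the log2 ratio of mir-181a-2 stood at place 1 with 0.01 added and at place 11 with 0.05 added, and that of mir-181a-1 at places 30 and 26.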

How the data were processed

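Small RNAs of HCT116 DICER-knockout cells were sequenced, per the labels' protocols, from a gel-cut fraction of 10 µg of total RNA (12% urea gel). The submitters' processing notes name Cutadapt, Bowtie2, bedtools and GRCh38, with neither order nor settings. The deposited table holds 294 lines, 1 variation score for each of 147 hairpins and each construct, as the authors computed it. Per the file headers it also holds a major 5′ end of the DICER-WT libraries, read here as an offset in nt, a 2-nt class and the hairpin sequence. It has no value per sample and no depth, so no interval or detection limit is given, and no test was run in place of the planned permutation test. Labels do not say whether samples were separate cultures.

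The 2 hairpins, lists and thresholds were chosen with earlier results of these data known. Differences are DICER-delHelicase minus DICER-WT, and log2 ratios use a pseudocount of 0.01. Places count from the highest of 147 hairpins. Besides the members, the text names the 5 hairpins nearest to each and the copies with different listed miRNAs. The hairpins mir-33b, let-7e, mir-200a, mir-99b among low scores, let-7a and mir-29b were named after their values were seen. Mature sequences were found for 136 hairpins and not for 11. Where a mature sequence occurred more than once in a hairpin (mir-941 copies), the match nearest the 3′ end was used. Folding used ViennaRNA 2.7.2 at 37 °C on deposited sequences, with the measures checked on structures of known answer. A fold is a prediction. The count of paired bases by 2-nt class and the groups by loop size were added after the table was seen.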

Additional observations from a re-analysis of the deposited data

How the results depend on the processing

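The sign of both score changes and of both gaps is the same on every scale by construction. Adding a pseudocount and taking logs keeps the order of a pair of scores, so only the sizes could move. The change of mir-181a-1, 0.0765 as a difference, was 0.81, 0.87 and 0.62 as a log2 ratio with pseudocounts of 0.01, 0.001 and 0.05. That of mir-181a-2, 0.1002 as a difference, was 2.92, 4.08 and 1.49. The gap of mir-181a-2 minus mir-181a-1 was -0.62 with DICER-delHelicase and -2.73 with DICER-WT on the log2 scale. For mir-181a-2 the percentile of the log2 ratio was 98.0 and fell to 86.4 with a pseudocount of 0.05, and that of its DICER-WT score was 17.7 and became 27.4 among hairpins of its own 2-nt class. In the centroid structure mir-181a-1 had 1 paired base before the 3p start in place of 2. Of 49 alternative values, the other 38 were equal to the main value or, for percentiles, within its exact 95% interval, which treats hairpins as independent. The alternative percentiles were taken over the same hairpins or parts of them, so their lying within that interval says little about stability. No paired analysis was possible because no values per replicate were given, which also kept replicates from being left out in turn. With the depth unknown, little can be read from the size of the DICER-WT score of mir-181a-2, which is close to 0.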
